A study of Mus musculus with 8 samples.

Results

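The 8 genes described here, Pf4, Ppbp, Itga2b, Itgb3, Gp1ba, Gp9, Treml1 and Clec1b, encode proteins that platelets and megakaryocytes carry or secrete, and were chosen by name from the 41250 genes of a count table of mouse splenic B cells. Platelets are fragments without a nucleus that bud from megakaryocytes, and they keep messenger RNA from that parent cell. In mice the spleen holds megakaryocytes and a pool of platelets, and platelets bind readily to leukocytes. Their surface receptors catch exposed vessel wall and fibrinogen, and their granules release chemokines and clotting factors.

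B cells were taken from wild-type mice and from mice homozygous for deletion of 3'RR, hs3b-hs4 or 3'PAL, all on a mixed strain background given as 129/C58BL/6. The 3'RR is the enhancer region downstream of the immunoglobulin heavy chain constant genes, and hs3b and hs4 are enhancers within it. What 3'PAL stands for was not spelled out, and age and sex of the animals were not given in the sources used here. Resting cells came straight from the spleen after a density gradient and removal of CD43-positive cells. Stimulated cells were cultured for 48 hours with 5 µg/mL LPS (bacterial lipopolysaccharide) and passed over a gradient once more. Each of the 4 genotypes gave 1 library in each of 2 states, and each library was made from B cells of 4 animals pooled in equal numbers. Whether resting and stimulated pools shared animals was not given in the sources used here. Libraries were made with a stranded kit from RNA freed of ribosomal RNA, and read as paired ends.

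Total counts ran from 17883683 to 28785192 per library, so that 3 counts, the limit that a count of 0 allows, corresponded to 0.104 to 0.168 CPM. The B cell label was borne out by its markers: 6 B cell genes (Cd79a, Cd79b, Ms4a1, Pax5, Cd22 and Blk) summed to 2633 to 2739 CPM in resting and 1962 to 2484 CPM in stimulated libraries. CPM, the count scaled to the size of its library, was also scaled between libraries by the trimmed mean of M values everywhere but in the limit above. The deleted enhancers are no genes of the table, so the genotype labels were not checked from the counts. With 1 library per genotype and state, differences between genotypes within a state have no replicate check. Intervals (95%) on CPM values and ratios cover counting error only, and reads without molecular identifiers are not independent molecules.

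The 8 genes were found in every resting library and were near or at 0 after culture, apart from Itga2b and Itgb3. Summed over the 8 genes, resting libraries held 76.1 CPM in wild type, 117 CPM in 3'RR, 53.2 CPM in hs3b-hs4 and 43.1 CPM in 3'PAL. The stimulated libraries held 7.55, 9.74, 9.43 and 10.2 CPM in the same order of genotypes, below each resting value. In stimulated wild-type cells Itgb3 made up 182 of the 214 counts of the 8 genes. No count was recorded for 4 of the 8 genes in the wild-type, hs3b-hs4 and 3'PAL stimulated libraries, and for 2 of the 8 in the 3'RR stimulated library. In bulk RNA, fewer cells or platelets of a type and less RNA in each cannot be told apart.

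**Figure D1:**
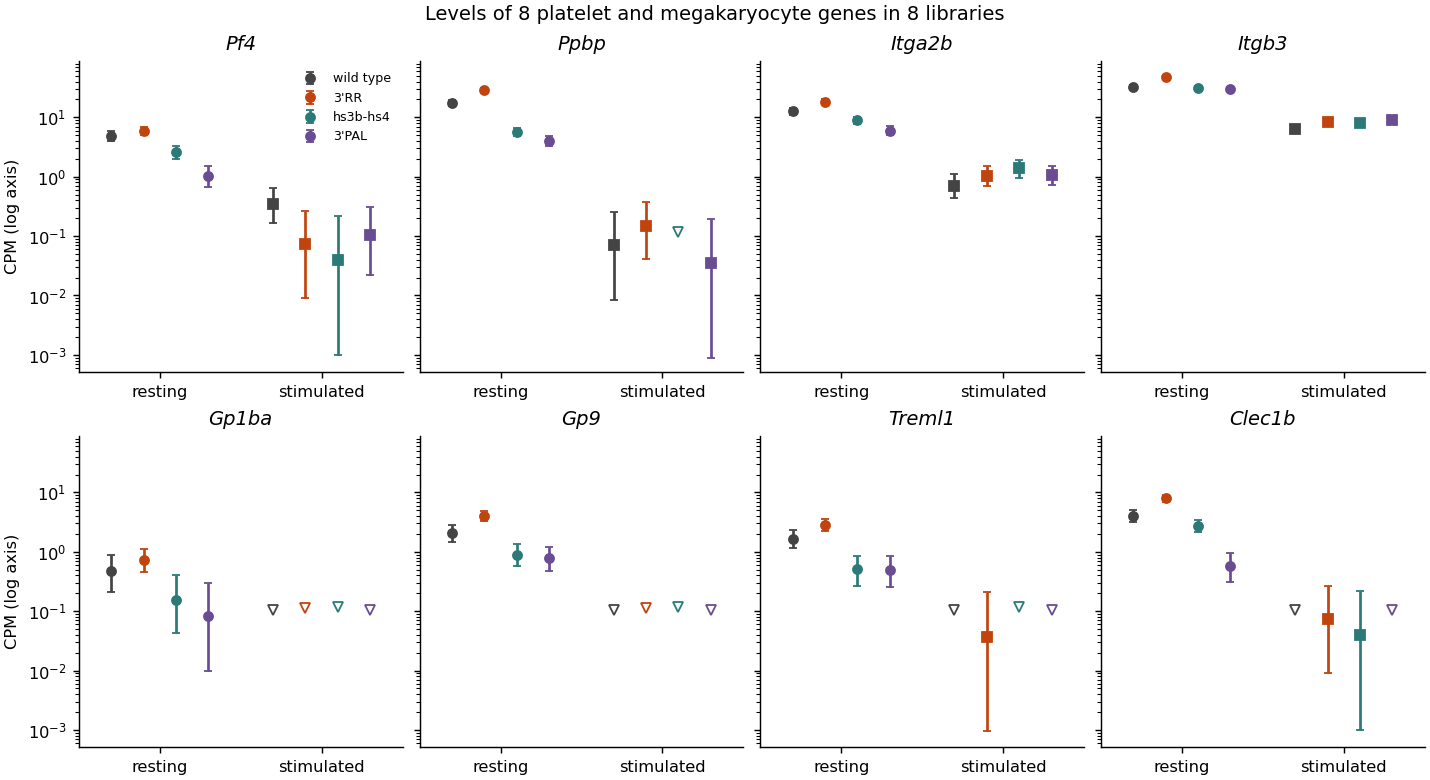
CPM (log axis) of each of the 8 genes in the 4 resting libraries (circles) and 4 stimulated libraries (squares), coloured by genotype, with exact 95% Poisson intervals for counting error. Open triangles mark libraries with no count, drawn at the level of 3 counts. Each resting value lies above every stimulated value of the same gene, apart from Gp1ba, where libraries at 0 are drawn at a limit near the 3'PAL resting value.

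Both granule chemokine genes were higher in resting than in stimulated cells of every genotype and lowest at rest in 3'PAL. Ppbp encodes pro-platelet basic protein, the precursor of a neutrophil-attracting chemokine, and Pf4 encodes platelet factor 4, a heparin-binding chemokine. On GRCm38 both lie on the plus strand of chromosome 5, Ppbp (ENSMUSG00000029372) at chr5:90768518-90770060 and Pf4 (ENSMUSG00000029373) at chr5:90772435-90773381, with 2374 bases between the end of the first and the start of the second. They are shown as a pair because they are neighbours. The 250 bases before each start, from RefSeq on GRCm38.p6 and printed 5′ to 3′ on the plus strand, each hold the letters GGAAGT on the opposite strand, which appear as ACTTCC in capitals.
Ppbp, chr5:90768268-90768517: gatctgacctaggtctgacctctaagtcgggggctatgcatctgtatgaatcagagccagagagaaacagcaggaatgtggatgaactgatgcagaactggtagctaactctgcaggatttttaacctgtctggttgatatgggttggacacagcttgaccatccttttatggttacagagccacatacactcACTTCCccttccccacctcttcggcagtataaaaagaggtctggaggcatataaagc
Pf4, chr5:90772185-90772434: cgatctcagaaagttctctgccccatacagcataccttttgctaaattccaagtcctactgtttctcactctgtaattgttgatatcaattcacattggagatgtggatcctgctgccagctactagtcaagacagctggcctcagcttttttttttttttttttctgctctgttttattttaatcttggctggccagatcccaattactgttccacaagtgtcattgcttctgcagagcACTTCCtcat
The match begins at -57 from the start of Ppbp and at -10 from that of Pf4. GGAAGT, a core that ETS family factors such as Fli1 can bind, stood on either strand in 4 of the 7 windows of that length found for these genes (Pf4, Ppbp, Itga2b and Gp9) and in 19.7% of all 32851 RefSeq windows. Such a match describes letters and not a bound site.

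Ppbp stood at 17.5 CPM in resting wild type, 28.7 CPM in 3'RR, 5.69 CPM in hs3b-hs4 and 4.06 CPM in 3'PAL. The 3'RR library was 1.64 times the wild type (interval 1.44 to 1.86), hs3b-hs4 was 0.324 times (0.265 to 0.395) and 3'PAL was 0.231 times (0.183 to 0.290). All 4 libraries differed from their neighbours in this order by more than counting error. In stimulated cells Ppbp had 2, 4, 0 and 1 counts in wild type, 3'RR, hs3b-hs4 and 3'PAL, against 338, 814, 146 and 99 in resting cells. Stimulated wild type was thus at 0.00402 times the resting level (interval 0.000485 to 0.0146), and stimulated hs3b-hs4, with no count, was at least 47.8-fold lower. Across the 4 genotypes Ppbp fell by 7.67 on the log2 scale (SE 0.28, edgeR quasi-likelihood test, adjusted p = 4.4e-06), a fitted value that depends on the small count added to libraries at 0. Ppbp, Pf4, Gp1ba, Gp9, Treml1 and Clec1b reached the level of the filter on low counts in no stimulated library. They were tested only because of their resting counts, so their p-values for stimulation, here and in what follows, are given as a description.

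Pf4 stood at 4.88 CPM in resting wild type, 5.96 CPM in 3'RR, 2.57 CPM in hs3b-hs4 and 1.03 CPM in 3'PAL. Wild type and 3'RR did not differ beyond counting error (ratio 1.22, interval 0.944 to 1.59). The 3'PAL library was at 0.210 times the wild type (0.129 to 0.330), and hs3b-hs4 was between them at 0.527 times (0.379 to 0.729). After culture 10, 2, 1 and 3 counts of Pf4 were left in wild type, 3'RR, hs3b-hs4 and 3'PAL, so the highest stimulated level, 0.353 CPM in wild type, was still below the lowest resting one. Pf4 fell by 4.58 (log2, SE 0.47, adjusted p = 0.00013). Compared per length, Pf4 was at 0.513 times the level of Ppbp in resting wild type, 0.383 in 3'RR, 0.833 in hs3b-hs4 and 0.465 in 3'PAL. That ratio was higher in hs3b-hs4 (interval 0.613 to 1.12) than in 3'RR (0.322 to 0.452), so the chemokine pair did not keep 1 proportion. The other genes within 100 kb had few or no counts: Cxcl5 reached 1 count in a library, Cxcl3 reached 6, and Cxcl15 and Gm24322 had none.

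Itga2b and Itgb3 encode the 2 subunits of the platelet fibrinogen receptor. Itga2b (CD41, ENSMUSG00000034664; chr11:102453297-102470122, minus strand) is also used as a marker of megakaryocytes, whereas the beta subunit encoded by Itgb3 (CD61, ENSMUSG00000020689; chr11:104608000-104670476, plus strand) pairs with another alpha subunit in many cell types. Resting libraries held Itga2b at 12.7 CPM in wild type, 18.4 CPM in 3'RR, 8.92 CPM in hs3b-hs4 and 5.99 CPM in 3'PAL. Ratios to wild type were 1.45 (interval 1.25 to 1.70), 0.704 (0.585 to 0.847) and 0.473 (0.382 to 0.583) for 3'RR, hs3b-hs4 and 3'PAL, and all 4 libraries were apart beyond counting error. For Itgb3 the resting levels were 32.9 CPM in wild type, 48.5 CPM in 3'RR, 31.7 CPM in hs3b-hs4 and 30.1 CPM in 3'PAL. Here 3'RR alone stood apart, at 1.48 times the wild type (1.34 to 1.63). The wild type, hs3b-hs4 and 3'PAL libraries did not differ between neighbours beyond counting error, with ratios to wild type of 0.965 (0.869 to 1.07) and 0.916 (0.823 to 1.02).

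These subunit genes were the only ones of the 8 that kept clear counts in every stimulated library. Stimulated Itga2b was at 0.705 CPM in wild type, 1.04 CPM in 3'RR, 1.39 CPM in hs3b-hs4 and 1.06 CPM in 3'PAL. Itgb3 was at 6.42, 8.37, 7.97 and 8.95 CPM in the same order. Both groups of libraries were separate from the resting ones for each gene. Itgb3 fell by 2.16 (log2, SE 0.15, adjusted p = 2.3e-05) and Itga2b by 3.36 (SE 0.33, adjusted p = 0.0001). Per length, Itga2b was at 0.417 times the level of Itgb3 in resting wild type, 0.411 in 3'RR, 0.304 in hs3b-hs4 and 0.215 in 3'PAL. In stimulated cells that ratio was 0.119, 0.135, 0.188 and 0.128, with intervals that overlap the resting ones in hs3b-hs4 and 3'PAL. These ratios rest on the summed exon length of each gene in the count table. In the authors' TPM (abundance per transcript length, summed over transcripts), Itga2b and Itgb3 stood at 3.25 and 4.82 TPM in resting wild type but at 2.26 and 1.51 TPM in stimulated wild type. In hs3b-hs4 the same pair went from 4.83 and 7.66 to 2.68 and 1.68 TPM. In 3'RR it went from 8.53 and 12.6 to 1.3 and 1.79 TPM, and in 3'PAL from 2.8 and 6.62 to 1.23 and 2.15 TPM. In stimulated wild type and hs3b-hs4, 1.22 and 1.39 TPM of Itga2b came from a transcript of 268 bases with 3 estimated counts. In stimulated 3'RR the same transcript gave 0.406 TPM from 1 estimated count, and in 3'PAL it gave none. Estimated counts of the pair, without length, went from 249 and 644 to 26 and 199 in wild type. The proportion of both subunit genes after culture thus differs between counts and TPM. The TPM leans on few reads of a short transcript in every genotype but 3'PAL, and the direction is not settled here.

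Gp1ba and Gp9 encode chains of the receptor complex that binds von Willebrand factor. Gp9 (ENSMUSG00000030054; chr6:87778136-87779762, plus strand) stood at 2.08 CPM in resting wild type, 4.06 CPM in 3'RR, 0.896 CPM in hs3b-hs4 and 0.779 CPM in 3'PAL. The 3'RR library was at 1.95 times the wild type (interval 1.35 to 2.88), and hs3b-hs4 and 3'PAL were at 0.431 (0.247 to 0.738) and 0.375 (0.205 to 0.663) times. The last pair did not differ beyond counting error (ratio 1.15, 0.599 to 2.23). No Gp9 count was recorded in any stimulated library, so stimulated levels were at least 19.6-fold lower in wild type, 36.4-fold lower in 3'RR, 7.54-fold lower in hs3b-hs4 and 7.34-fold lower in 3'PAL. The test across genotypes gave an adjusted p of 0.0006 for Gp9, with the limit of a gene kept through its resting counts.

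Gp1ba (ENSMUSG00000050675; chr11:70639122-70642036, plus strand) was the least abundant of the 8, with 9, 21, 4 and 2 counts in resting wild type, 3'RR, hs3b-hs4 and 3'PAL and none in the 4 stimulated libraries. No neighbours in its resting order differed beyond counting error. Stimulated levels were at least 4.42-fold lower in wild type, 6.64-fold lower in 3'RR and 1.31-fold lower in hs3b-hs4, and 3'PAL was under the limit of 3 counts in both states. Gp1ba fell in the test over genotypes (adjusted p = 0.0068), having passed the filter on low counts through 2 resting libraries. The authors' kallisto table, which assigns reads to transcripts, gave another picture, with 50, 72, 66 and 57 estimated counts in resting and 38, 38, 57 and 35 in stimulated cells. From those estimates the fall was 0.61 (log2, adjusted p = 0.033), and resting ratios to wild type were 0.953, 0.959 and 0.882 for 3'RR, hs3b-hs4 and 3'PAL. The reason for the gap between both tables was not tested, and the Gp1ba values of either are uncertain.

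The window before the Gp1ba start, RefSeq on GRCm38.p6, is shown because it held the most GATA letters of the 7 windows found. Capitals mark, on either strand, the motif AGATAA, its variant ending as AGATAG, the motif written TGATAA, or the related form TGATAG, letters that GATA family factors such as Gata1 can bind.
Gp1ba, chr11:70638872-70639121, plus strand: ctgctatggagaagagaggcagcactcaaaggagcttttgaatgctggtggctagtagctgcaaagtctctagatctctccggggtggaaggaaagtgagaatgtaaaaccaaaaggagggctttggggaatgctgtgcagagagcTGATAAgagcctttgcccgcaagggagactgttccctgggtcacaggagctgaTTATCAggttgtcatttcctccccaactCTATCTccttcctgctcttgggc
Its 3 matches begin at -104, -51 and -23 from the start. Clec1b held 1 match, at -189, and is printed with the next gene. Such letters stood in 2 of the 7 windows of these genes and in 26.5% of all windows, a similar share. No window was at hand for Itgb3.

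Treml1 and Clec1b encode single-pass surface receptors. Treml1 (ENSMUSG00000023993; chr17:48359916-48367174, plus strand) encodes TLT-1, which is stored in granules and brought to the surface of activated platelets. It stood at 1.66 CPM in resting wild type, 2.82 CPM in 3'RR, 0.506 CPM in hs3b-hs4 and 0.492 CPM in 3'PAL. Ratios to wild type were 1.70 (interval 1.11 to 2.65), 0.305 (0.147 to 0.597) and 0.296 (0.139 to 0.591), and hs3b-hs4 and 3'PAL did not differ beyond counting error. A single count in 3'RR was all that the 4 stimulated libraries held. The other 3 genotypes were at least 15.7-fold (wild type), 4.26-fold (hs3b-hs4) and 4.64-fold (3'PAL) lower than in resting cells. The test over genotypes gave an adjusted p of 5.3e-05, again for a gene kept through its resting counts.

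Clec1b (ENSMUSG00000030159; chr6:129397297-129409335, plus strand) encodes CLEC2, the receptor for podoplanin, and had the widest resting range of the 8 genes.
Clec1b, chr6:129397047-129397296, plus strand, RefSeq on GRCm38.p6, GATA letters in capitals: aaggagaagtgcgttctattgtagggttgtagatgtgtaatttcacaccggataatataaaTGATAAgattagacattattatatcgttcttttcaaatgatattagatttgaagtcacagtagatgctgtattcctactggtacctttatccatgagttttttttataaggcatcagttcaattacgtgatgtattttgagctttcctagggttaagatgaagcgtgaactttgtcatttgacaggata
Clec1b stood at 4.00 CPM in resting wild type, 7.94 CPM in 3'RR, 2.77 CPM in hs3b-hs4 and 0.574 CPM in 3'PAL, a 13.8-fold range. The 3'RR library was at 1.99 times the wild type (interval 1.53 to 2.61), hs3b-hs4 at 0.692 times (0.494 to 0.968) and 3'PAL at 0.144 times (0.0751 to 0.256). Each step of that order was larger than counting error, and the last, from hs3b-hs4 to 3'PAL, was 4.82-fold (2.69 to 9.25). Stimulated cells had 0, 2, 1 and 0 counts, and the test over genotypes gave an adjusted p of 2e-05, with the same limit as for Gp9. The annotated end of Clec1b overlaps the dendritic cell gene Clec9a by 474 bases on the same strand, and Clec9a had 52, 247, 78 and 62 counts in the resting libraries and none after culture. Clec9a, at 2.7 CPM in wild type and 2.54 CPM in 3'PAL, thus did not show the low 3'PAL level of Clec1b.

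**Figure D2:**
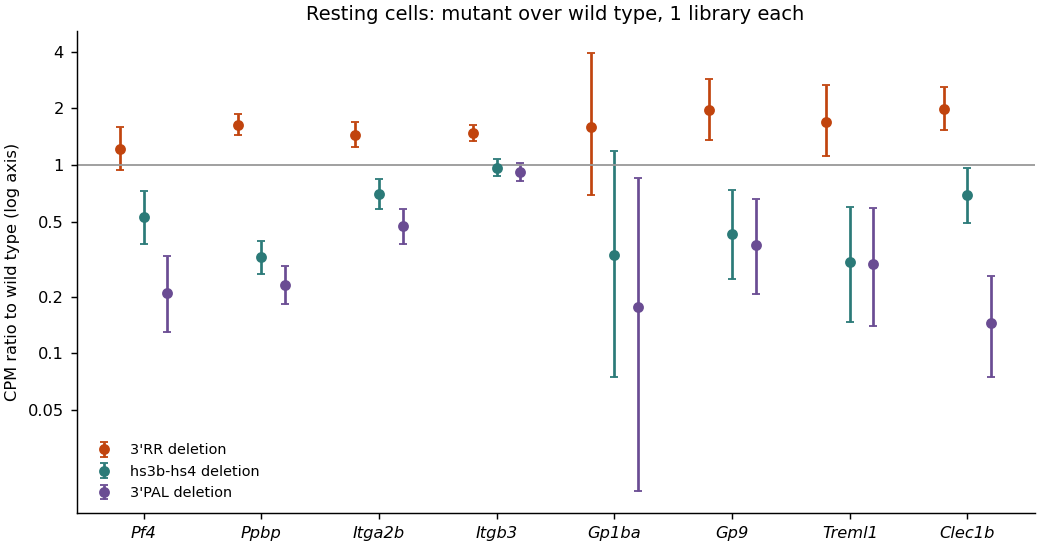
Ratio of CPM in each resting mutant library to the resting wild-type library (log axis) for the 8 genes, with exact conditional 95% intervals for counting error. All 8 points for 3'RR lie above 1 and all 8 points for hs3b-hs4 and 3'PAL lie below 1, and the intervals of Gp1ba are the widest.

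In resting cells the 8 genes shared 1 order: 3'RR highest, then wild type, hs3b-hs4 and 3'PAL. That order was found in 5.08% of the 14789 genes that passed the filter. The 3 comparisons with wild type share its library, and any departure of that library moves them together. For 3'RR, 8 of 8 genes were above wild type (background 58% of genes), none by 2-fold (9.7%), and 6 of 8 intervals lay off 1. With kallisto's estimated counts Gp1ba turned direction in 3'RR (0.953 times wild type, against 1.59), which leaves 7 of 8 above wild type and 7 of 8 in the shared order. For hs3b-hs4, 8 of 8 were below wild type (41.7%) and 4 by at least 2-fold (5.21%), again with 6 intervals off 1. Gp1ba, among those 4 at 0.334 times wild type (interval 0.0751 to 1.19), was not 2-fold lower with kallisto. For 3'PAL, 8 of 8 were below wild type (42.3%) and 7 by at least 2-fold (6.01%), with 7 intervals off 1, where Gp1ba again moved from 0.176 to 0.882 with kallisto. Set directly beside each other, the ends of this order, picked after it was seen and so restating it, had 3'PAL below 3'RR in 8 of 8 (50.8%), by at least 2-fold in 7 (9.72%), with every interval off 1. Itgb3, whose highest and lowest resting levels were 1.61-fold apart, was the exception to the larger folds. All 8 were read in the same 4 pools, so they are not 8 independent observations.

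Over both states together, where each mutant has 2 libraries, none of the 8 genes passed the edgeR test in any mutant. For 3'RR 0 of 8 were called against 1.88% of all genes, with 3 at an unadjusted p under 0.05 and 0 by DESeq2. For hs3b-hs4 0 of 8 were called against 0.135%, with 2 at an unadjusted p under 0.05 and 0 by DESeq2. For 3'PAL 0 of 8 were called against 0.514%, with 4 at an unadjusted p under 0.05 and 1, Ppbp, by DESeq2. In edgeR the 3'PAL coefficient of Ppbp was -2.06 (log2, SE 0.31, adjusted p = 0.055) and that of Clec1b was -2.71 (SE 0.53, adjusted p = 0.11). DESeq2 gave Ppbp -2.07 with an adjusted p of 0.0063, and edgeR gave 0.043 with DESeq2's size factors and 0.0036 without the filter on low counts, so its call in 3'PAL depends on the setting. The stimulated libraries, where 6 of the genes had 10 counts or fewer, moved some of these coefficients and not others. Ppbp in 3'PAL, at -2.06, stayed near its resting log2 ratio of -2.11. Pf4 in 3'RR had a resting log2 ratio of 0.29 but a coefficient of -0.21. Itga2b in hs3b-hs4 had -0.51 at rest but a coefficient of 0.03. The coefficients therefore do not stand for the resting differences alone.

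Across the 4 genotypes all 8 genes were called lower in stimulated cells, beside 35.2% of all genes lower and 34.5% higher. For 6 of them no stimulated library reached the filter level, so they were tested because of their resting counts and had to differ, so this number is no evidence about them. Only Itga2b and Itgb3 reached that level in all 8 libraries. Their stimulated levels were 0.0557 to 0.177 times (Itga2b) and 0.172 to 0.297 times (Itgb3) the resting ones over the 4 genotypes. The counts within single genotypes carry the same limit and are given as a description. With libraries at 0 put at 3 counts, 8 of 8 were at least 2-fold lower in wild type (background 23.6%) and in 3'RR (21.6%). In hs3b-hs4 (21.9%) and 3'PAL (17.8%) it was 7 of 8, with Gp1ba below what its counts could show. Median log2 ratios of the 8 genes on that scale were -4.07 in wild type, -5.72 in 3'RR, -2.80 in hs3b-hs4 and -2.47 in 3'PAL, beside -0.03, -0.02, -0.04 and 0.03 for all genes tested. Smaller falls in the last pair go with lower resting counts, which leave less room above the limit. Counts of 1 or 2 were kept as they were, so a gene with 1 count can show a larger fall than one with none. In 3'RR 2 of the 8 genes had no stimulated count, against 4 in each other genotype. These medians therefore do not compare the genotypes evenly.

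Further platelet and megakaryocyte genes were followed in 4 lists of 50 genes, of which 43 passed the filter, 37 fell (background 35.2%) and 4 rose (34.5%) on stimulation. Of 11 surface receptors tested 10 fell, among them Cd226 (-7.32, adjusted p = 1.3e-05), an adhesion receptor, P2ry12 (-4.63, 2.7e-05), the ADP receptor that antiplatelet drugs block, Esam (-4.44) and Gp5 (-3.41). Granule proteins fell in 11 of 12, with Thbs1 (thrombospondin) at -6.78, clotting factor gene F5 at -7.13, Clu at -5.80 and Pdgfb at -4.45. Signalling and cytoskeleton genes fell in 10 of 11, led by Tubb1, the platelet beta tubulin, at -8.16, Ptgs1 at -8.00, the myosin light chain gene Myl9 at -8.18 and Tbxas1 at -6.15. All of these are log2 changes, and for genes at or near 0 counts they depend on the added count. Many of these genes, too, passed the filter through resting libraries. Named after their values were seen, the genes of these 3 lists that rose were Cd36 (1.87), which is also found on marginal zone B cells, Serpine2 (1.18) and Fermt3 (0.41), a kindlin of blood cells, and the remaining riser was a transcription factor gene, Gfi1b.

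**Figure D3:**
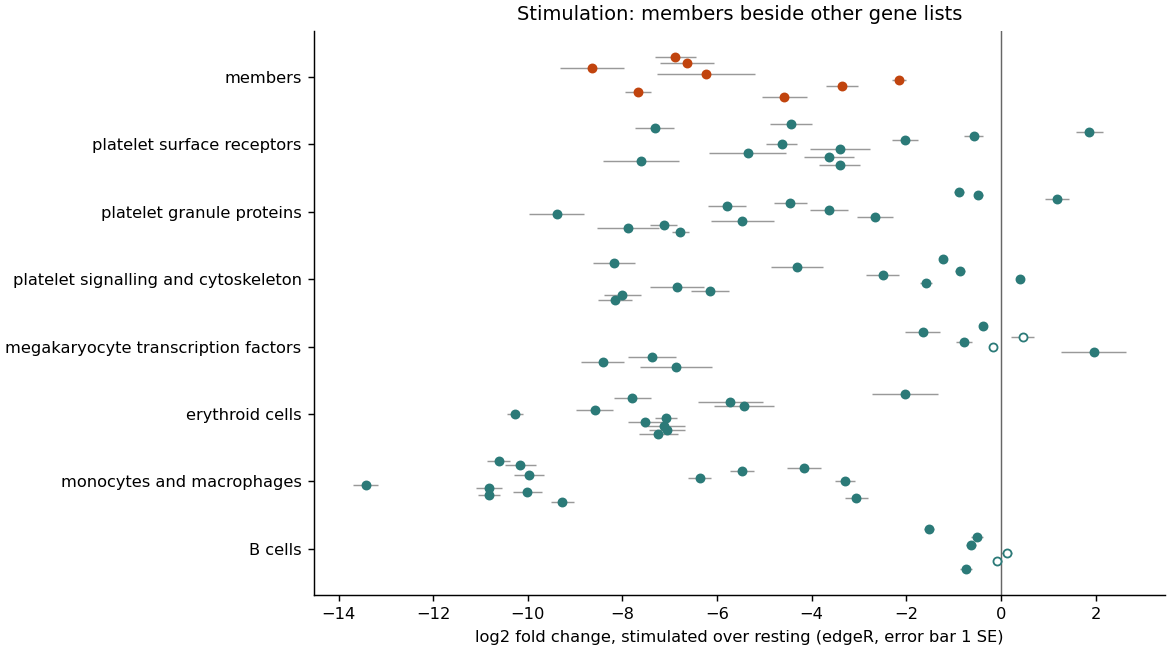
Log2 fold change of stimulated over resting cells (edgeR, all 8 libraries) for each tested gene of the 8 genes and of 7 marker lists, with bars of 1 SE. Filled points passed an adjusted p of 0.05 and open points did not. The 8 genes lie between -8.65 and -2.16, and genes of other lists lie further left. The lowest of the 8, Gp9, has no count in any stimulated library.

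Medians for the lists were taken the same way, with libraries at 0 put at 3 counts and counts of 1 or 2 kept. The median log2 ratio of the surface receptors was -3.22 in wild type, -4.12 in 3'RR, -2.39 in hs3b-hs4 and -2.38 in 3'PAL. Granule proteins had medians of -5.40, -5.03, -3.96 and -3.24, and signalling and cytoskeleton genes -4.84, -5.20, -2.69 and -3.38. Transcription factors of megakaryocytes stood nearer 0, at -1.47, -0.42, -0.66 and -0.59. Of the 9 tested 6 fell, among them Nfe2 (-8.42), Tal1 (-7.38), Gata1 (-6.87) and Lyl1 (-0.37), and Gfi1b, also named after its value was seen, rose by 1.96 (adjusted p = 0.036).

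The ends of the resting order were set beside those of the other lists. Of 11 surface receptors 8 were highest in 3'RR and 9 lowest in 3'PAL, of 12 granule proteins 9 and 8, and of 11 signalling and cytoskeleton genes 9 and 6, beside 31.5% and 20.6% of all genes tested. Of 9 transcription factors 6 were highest in 3'RR and 2 lowest in 3'PAL. Nfe2, Tal1 and Gata1, which erythroid cells also use, did not take the order of the 8 genes: Nfe2 stood at 1.4 CPM in wild type, 13.7 CPM in 3'RR, 2.34 CPM in hs3b-hs4 and 14.1 CPM in 3'PAL. Of the 9 factors 2 were called higher over both states in 3'RR and 1 in 3'PAL. Of all genes 1.88% and 0.514% were called there in either direction. Nfe2 was called in 3'RR (3.35 on the log2 scale, edgeR adjusted p = 0.02) and in 3'PAL (3.26, adjusted p = 0.046), and Tal1 in 3'RR (3.77). Nfe2 had 0, 2, 0 and 0 stimulated counts in wild type, 3'RR, hs3b-hs4 and 3'PAL. Its calls thus lean on 1 resting library per genotype.

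**Figure D4:**
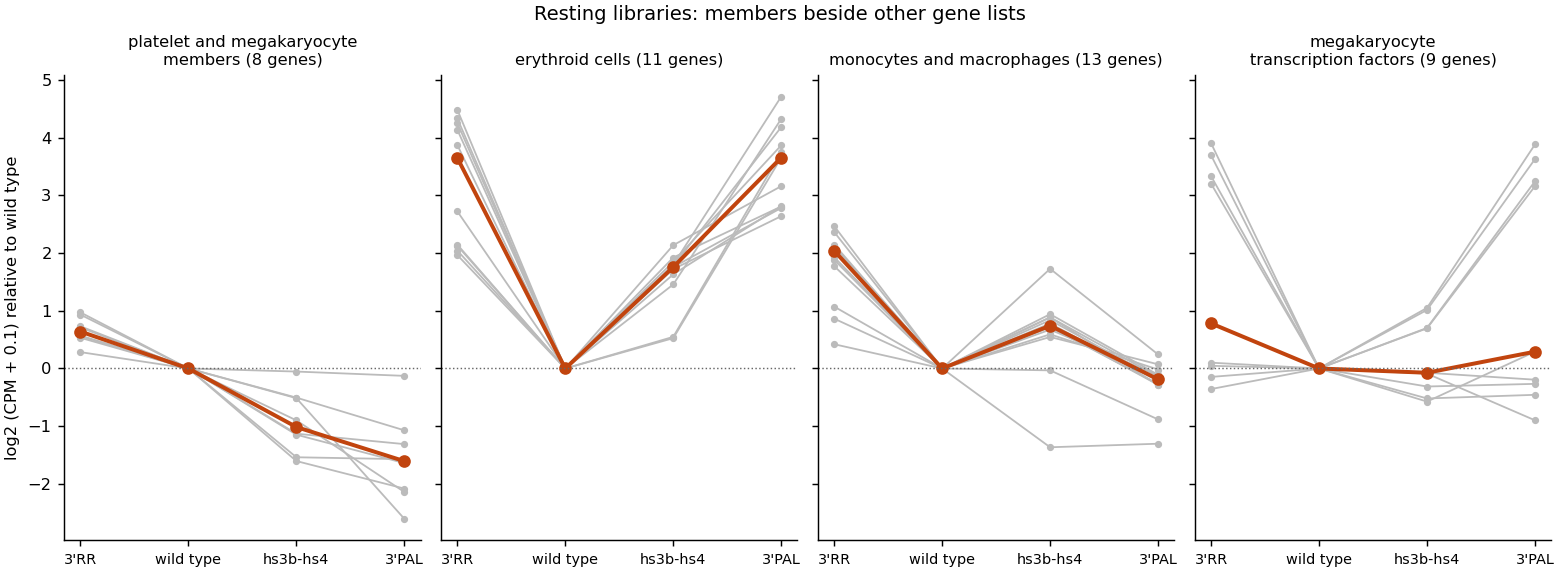
Log2 of CPM + 0.1 in each resting library relative to wild type, 1 grey line per gene and the median in colour, for the 8 genes and 3 marker lists. Lines join the libraries only to show genes. The 8 genes step down from 3'RR to 3'PAL, whereas erythroid genes are high at both ends.

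Markers of other cells moved between the same resting libraries. The 11 erythroid genes summed to 3122 CPM in wild type, 13682 CPM in 3'RR, 10746 CPM in hs3b-hs4 and 21750 CPM in 3'PAL. All 11 were lowest in wild type and 8 highest in 3'PAL. Of all 14789 genes tested, 4848 were lowest in wild type and 3367 highest in 3'PAL. Their resting medians on the log2(CPM + 0.1) scale were 3.65, 1.76 and 3.65 above wild type in 3'RR, hs3b-hs4 and 3'PAL, where those of the 8 genes were 0.64, -1.01 and -1.61 and those of all genes 0.07, 0.07 and 0.05. Over both states 8 of 11 erythroid genes were called higher in 3'RR, 1 in hs3b-hs4 and 8 in 3'PAL, where 1.88%, 0.135% and 0.514% of all genes were called in either direction. The 8 genes therefore were lowest in 3'PAL, where the erythroid sum was highest. They were highest in 3'RR, where the erythroid median was the same as in 3'PAL. Klf1, Epor and Car2 stood higher in 3'RR than in 3'PAL.

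The 13 monocyte and macrophage genes summed to 456, 1571, 678 and 356 CPM in resting wild type, 3'RR, hs3b-hs4 and 3'PAL. All 13 were highest in 3'RR and 10 lowest in 3'PAL, the same ends as the 8 genes, but hs3b-hs4 lay above wild type in 11 of 13. The other 2 were Lyz2 and Marco. Lyz2 took the order of the 8 genes, with 133 CPM in wild type, 242 CPM in 3'RR, 130 CPM in hs3b-hs4 and 72.1 CPM in 3'PAL. Their medians were 2.05, 0.74 and -0.18, and 9 of 13 were called higher in 3'RR over both states (1.88% of all genes in either direction). After culture they summed to 7.97 to 17.9 CPM, and the erythroid genes to 19.9 to 255 CPM. All 13 and all 11 fell on stimulation, as the 8 genes did. Resting dendritic cell genes (6) summed to 60 to 184 CPM, basophil and mast cell genes (6) to 11.3 to 32.5 CPM, T cell genes (8) to 31.5 to 62.9 CPM and NK cell genes (5) to 5.15 to 10.9 CPM. Resting endothelial and stromal genes (8) summed to 148 to 170 CPM and neutrophil genes (8) to 0.415 to 3.85 CPM. Stimulated libraries held 46.5 to 52.8, 0.987 to 2.45, 11.1 to 22.1, 0.917 to 2.55, 65 to 73.7 and 0.0353 to 0.159 CPM of these 6 lists in the same order. Single genes that other cells also express carried several of these sums: Flt3 held 43.6 to 50.7 CPM of the stimulated dendritic sum and rose (0.92, adjusted p = 0.013) where the other 5 genes fell. Pecam1 held 63.5 to 72.6 CPM of the stimulated endothelial sum, Lck 10.8 to 21.5 CPM of the T cell sum, Kit 0.882 to 2.38 CPM of the basophil and mast cell sum and Prf1 0.846 to 2.3 CPM of the NK cell sum. In resting wild type Pecam1 held 148 of 157 CPM, Kit 13.6 of 14.4 CPM and Prf1 6.12 of 6.64 CPM of their lists. Of the 31.5 CPM of T cell genes there, Lck held 13.9, Cd4 13.7 and Cd8a 3.37 CPM. Cd3e had 0, 2, 4 and 1 counts in resting wild type, 3'RR, hs3b-hs4 and 3'PAL. Ly6g of neutrophils and Mcpt8 of basophils had no count in any library. The part of other cells in the levels of the 8 genes was not tested.

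The pattern over all 8 libraries was then compared between genes. Each gene's CPM was turned into shares of its sum over the 8 libraries, and likeness was 100 minus the percentage points of share that would have to move to give the mean profile of the 8 genes. That mean profile held 27.8% in resting wild type, 45.1% in 3'RR, 14.1% in hs3b-hs4 and 8.94% in 3'PAL, with 0.944 to 1.10% in each stimulated library. To this mean, which they themselves make up, 7 of the 8 genes had a likeness between 89.0 (Itga2b) and 92.1 (Gp9), and Itgb3 had 73.6, beside a median of 49.6 over 11573 genes with at least 100 counts. The 10 other genes most like the mean were C3 (95.9), Vwf (95.4), Gng11 (95.2), Rnf180 (94.2), Leprel1 (92.7), Gucy1b3 (92.7), Fhl1 (92.6), Thbs1 (92.5), Slc6a4 (92.5) and Hspa1b (92.4). Vwf and Thbs1 were the 2 of them that stood in the platelet lists. Likeness also counts the fall with culture, which the erythroid and macrophage genes share. All genes were read in the same 8 libraries, so their profiles are not independent, and likeness over 8 libraries is a description.

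**Figure D5:**
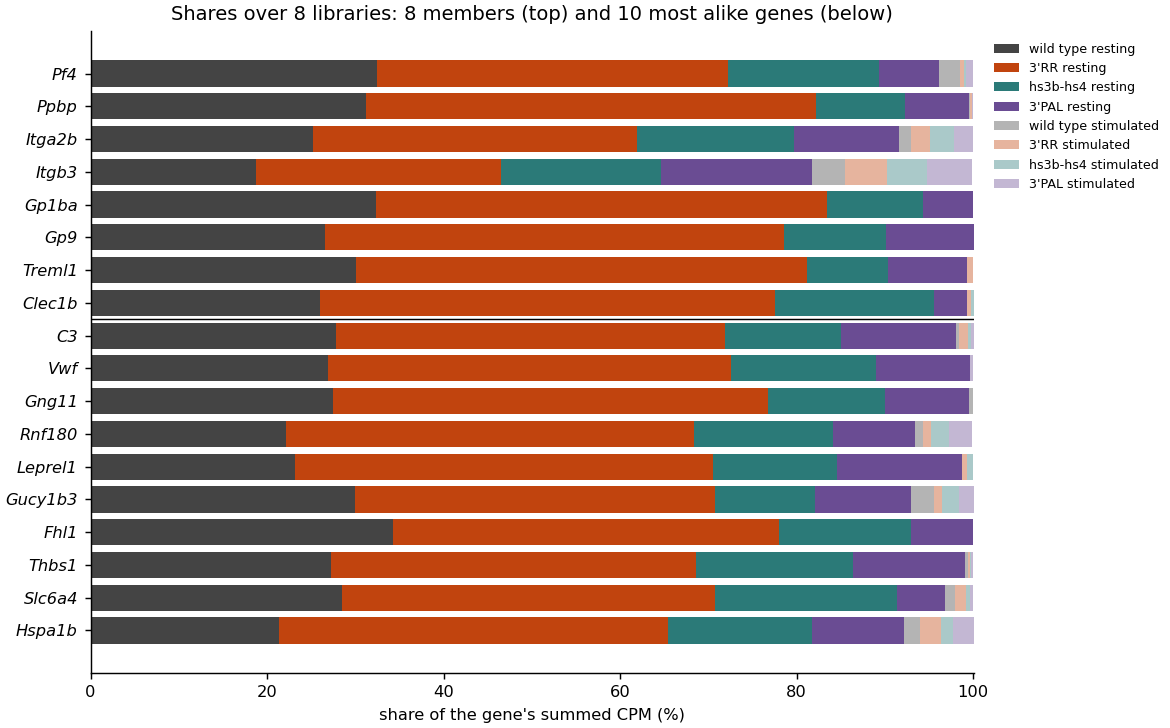
Share (%) of each gene's summed CPM that lies in each of the 8 libraries, for the 8 genes (above the line) and the 10 most alike other genes (below it). Itgb3 differs from the others by its larger pale part, the stimulated libraries, and by nearly equal shares in wild type, hs3b-hs4 and 3'PAL resting cells.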

How the data were processed

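Raw counts for each gene symbol were deposited by the authors; STAR 2.4.0a, featureCounts of Subread 1.4.6-p1, and GRCm38 (mm10) are named in the submitters' processing notes. Transcript tables hold estimated counts and TPM (length-scaled abundance) deposited by the authors, for which the notes name kallisto 0.42.3; estimated counts were summed per gene and rounded to whole numbers, and TPM is printed for Itga2b and Itgb3 only. Annotation version, strand setting and the unit counted (read or fragment): not given in the sources used here. An entry without a gene name (0.00621 to 0.0342% of counts) and 92 spike-in entries with no count were left out.

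Counts of all 8 libraries were fitted with edgeR 4.0.16 (R 4.3.3): TMM scaling (factors 0.943 to 1.08), filterByExpr (14789 genes kept), and a quasi-likelihood test with terms for state and genotype (3 residual df, BCV 16%), Benjamini-Hochberg adjusted over all genes at 0.05. Genotype is the block that pairs a resting with a stimulated library; the fit assumes that a mutant difference is the same in both states. Within a state no test was made: CPM has exact Poisson 95% intervals and ratios have exact conditional binomial ones (scipy 1.17.1). A library at 0 was put at 3 counts for a bound, and counts of 1 or 2 were kept. The scripts were checked on simulated data. P-values rest on what the terms for state and genotype leave over. There, spread between pools and unlike responses of the genotypes cannot be told apart.

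Members and lists were chosen with earlier results of these data known. All 8 members are named, at most 4 genes per platelet or megakaryocyte list by lowest adjusted p, markers at 0, and the 10 most alike genes with at least 100 counts and no clone name. Alternatives were DESeq2 1.42.0 and its size factors, library size alone, no filter, kallisto counts, leaving out a genotype and no block. A marker of the B cell list is not reported here.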

Additional observations from a re-analysis of the deposited data

How the results depend on the processing

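The 8 genes were called lower on stimulation in 8 of 8 cases with DESeq2, its size factors, library size alone, no filter and kallisto counts, and in 7 to 8 with a genotype left out; without the block that pairs libraries by genotype it was 7. Gp1ba, filtered out, was the one missing without wild type, without 3'RR and without the block. Of the 14789 genes tested, 5200 were called lower in the main fit and 5120 with DESeq2. In the gene counts, all of the 8 genes but Itga2b and Itgb3 passed the filter only through their resting libraries. Their calls under these settings are therefore no evidence about them. In 3'PAL over both states, 0 of 8 were called, against 1 with DESeq2, with its size factors and with kallisto counts, 2 without the filter, and 0 to 1 with a genotype left out (1, Ppbp, without hs3b-hs4). Ppbp in 3'PAL ran from an adjusted p of 0.0036 without the filter to 0.11 without 3'RR. In hs3b-hs4 over both states the count was 0, against 1 (Ppbp) without the filter. The cause was not tested. The resting order held in 8 of 8 with library size or DESeq2 size factors, and in 7 with kallisto counts (not Gp1ba, whose 3'PAL ratio moved from 0.176 to 0.882). The comparison of 3'PAL with 3'RR was added after seeing the data. Gp1ba in 3'RR turned from 1.59 to 0.953 with kallisto counts, within counting error; no other resting ratio of the 8 genes to wild type turned. Under 10 counts, as for Gp1ba, depth limits any order.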
